A study of Mus musculus with 5 samples.

Results

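The comparison set the adult subventricular zone (SVZ), the germinal layer along the lateral ventricle, against the dentate gyrus (DG) of the hippocampus, gene by gene. Coding genes were those with a RefSeq mRNA accession that the authors' table did not type as long intergenic noncoding RNA. Their FPKM values (fragments mapped to a transcript, scaled by its length and by the library's mapped fragments) were summed by symbol over 25975 transcripts. This gave 20340 genes, of which 13488 were at 1 FPKM or more in SVZ sample 1 or in the dentate gyrus and were compared. A difference below is log2(FPKM + 1) in SVZ sample 1 minus that in the dentate gyrus, so that 1 is a 2-fold and 2 a 4-fold difference, somewhat understated for genes of low level.

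The series measured poly(A)-selected RNA in 5 libraries from 4 brain regions: 2 biological replicates of the SVZ, and 1 library each of the dentate gyrus, the olfactory bulb and the striatum, the tissue beside the SVZ. All mice were adult, male, wild-type C57BL/6 animals, and no treatment is named. The regions were microdissected and snap-frozen, and RNA was extracted with Trizol and cleaned with DNase on RNeasy columns. No cells were sorted, so every value is a mixture of all cell types in a piece of tissue, and the labels do not say how many animals gave each piece. With 1 library on each side there is no replicate check within the dentate gyrus, and no p-value is given. SVZ sample 2 served only to check directions: its difference from the dentate gyrus uses the same dentate gyrus library, so the SVZ values are separate and the dentate gyrus value is not.

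In both regions astrocyte-like neural stem cells divide throughout adult life. Stem cells of the SVZ lie behind a single sheet of multiciliated ependymal cells, give rise to rapidly cycling progenitors that express Dlx factors, and send neuroblasts to the olfactory bulb, where most become GABAergic interneurons. Stem cells of the dentate gyrus lie below the granule cell layer, pass through Eomes- and Neurod1-expressing progenitors, and add glutamatergic granule neurons that express Prox1. The SVZ also borders the striatum, whose projection neurons are GABAergic and carry dopamine receptors, whereas the dentate gyrus holds densely packed mature granule neurons.

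The 2 libraries compared belonged together by their values. Gapdh, a glycolytic enzyme, was at 457 FPKM in SVZ sample 1, 563 in the olfactory bulb and 414 in the dentate gyrus, but at 32.4 in SVZ sample 2 and 39.5 in the striatum. SVZ sample 1 was therefore set against the dentate gyrus. The labels do not say what separated these sets. Genes at 1 FPKM or more numbered 12253 to 13111 in the 5 libraries. The dentate gyrus library listed 5731 genes at 0, against 3170 to 3999 in the others, and of its nonzero values 5% lay under 0.247 FPKM, compared with 0.0417 to 0.0633 for the rest. Defining markers were present in the labelled tissues: Prox1, of granule cells, was at 89.5 FPKM in the dentate gyrus, and Foxj1, Thbs4 and Dcx, of ependymal cells, SVZ astrocytes and neuroblasts, were above the striatum in both SVZ samples. Both SVZ samples also held striatal genes at about the level of the striatum. A listed 0 is not always absence: the coding transcript of Atp2a2, the endoplasmic reticulum calcium pump found in every cell, was listed at 0 in the dentate gyrus while its RefSeq noncoding transcript was at 187.0 FPKM there. Genes listed at 0 are given by their values, without a difference.

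Most genes had similar levels in both regions. The median difference over the 13488 genes was 0.16, and 11011 genes (81.6%) lay within 1 log2 unit. Genes at least 2 units higher in SVZ sample 1 numbered 471 (3.49%), and 238 (1.76%) were at least 2 units lower. All 471 and all 238 had the same sign with SVZ sample 2, and 252 and 226 of them were again 2 units or more apart, as were 2.84% and 3.25% of all genes in those directions. The same dentate gyrus value enters both differences, so these counts are no separate check of that value. Between the 2 SVZ samples, 43 of 13266 genes (0.324%) were 2 units or more higher in sample 1 and 83 (0.626%) were 2 or more lower. At 1 unit, the size used for the gene lists below, the direction was the reverse. There, 1592 of the 13266 genes were higher in SVZ sample 1 than in sample 2 and 246 were lower. Against the dentate gyrus, 1708 of 13488 genes were 1 unit or more higher in SVZ sample 1, a similar number, and 769 were lower. At 2 units, the counts against the dentate gyrus with SVZ sample 2 in place of sample 1 were 397 higher and 439 lower. Of these counted genes 47.5% were on the SVZ side, against 66.4% with sample 1. A pseudocount of 5 in place of 1 gave 142 higher and 122 lower (53.8%). Just around the threshold, 46 genes on the SVZ side and 24 on the dentate gyrus side lay within 0.05 of 2 units. In bulk tissue, a lower value from fewer cells of a type and from less RNA per cell cannot be told apart.

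**Figure D1:**
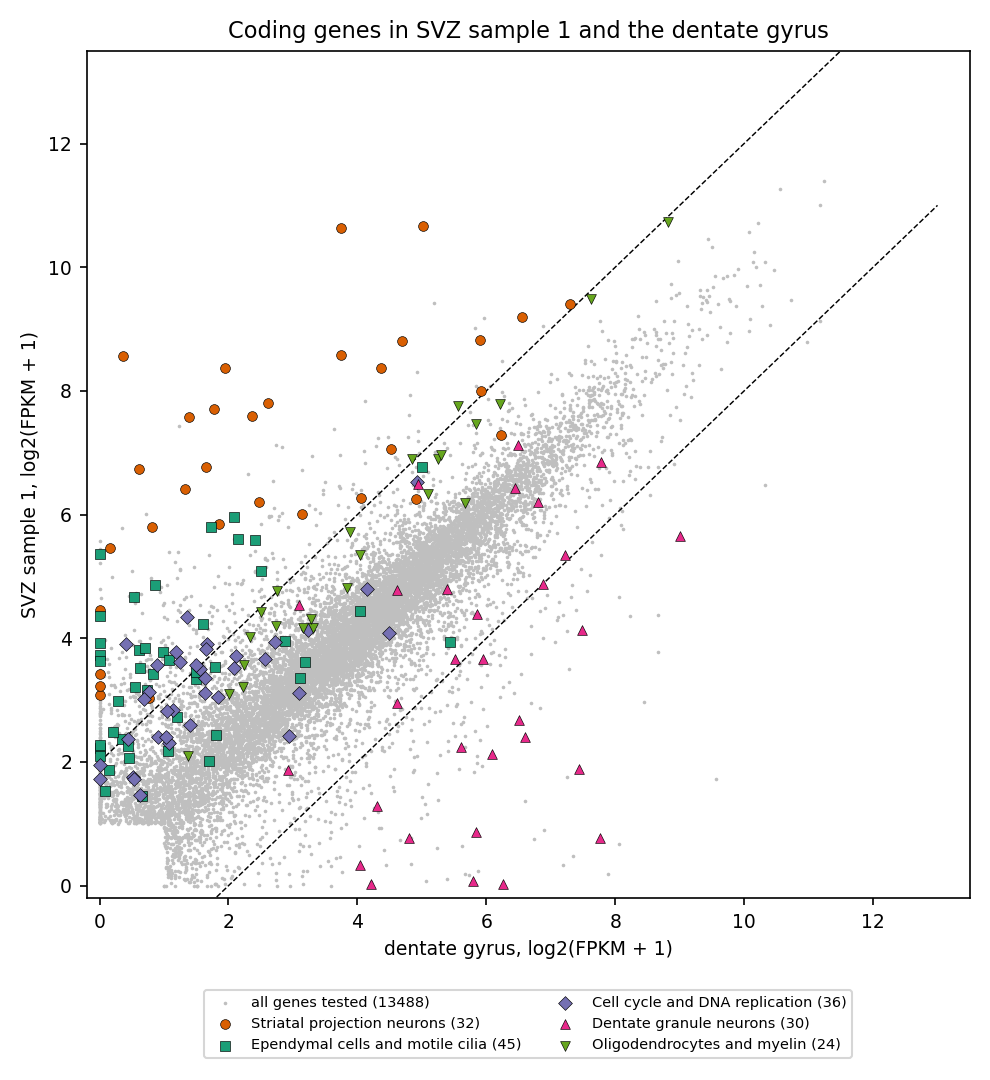
Each point is a coding gene, with log2(FPKM + 1) in the dentate gyrus on the x axis and in SVZ sample 1 on the y axis. Grey points are all 13488 genes compared, coloured symbols are members of 5 gene lists, and dashed lines mark 2 log2 units either way. All 32 striatal genes and nearly all ependymal and cell cycle genes lie above the diagonal, and most dentate granule neuron genes lie below it.

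The 15 largest SVZ-side differences were led by genes of striatal projection neurons. Penk, the enkephalin precursor, was at 1581 and 1684 FPKM in the SVZ, 1213 in the striatum, 229.7 in the olfactory bulb and 12.4 in the dentate gyrus, a difference of 6.88 with SVZ sample 1 and 6.97 with sample 2. It was high in the SVZ and striatum libraries and lowest in the dentate gyrus. Scn4b, a sodium channel beta subunit, differed by 6.42, and Meis2, a homeobox factor of the ventral forebrain, by 6.19. For Meis2 the olfactory bulb was the highest library, at 207 FPKM against 171 and 143 in the SVZ, 135 in the striatum and 1.35 in the dentate gyrus.

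Next came the adenosine receptor Adora2a (6.19), the receptor Gpr6 (6.12), the dopamine receptor Drd2 (5.93), the phosphatase inhibitor Ppp1r1b, also called DARPP-32 (5.65), the serotonin receptor Htr1b (5.45), Cd4 (5.30), Gm1337 (5.28) and Tmem90a (5.24). Each was higher in both SVZ samples and in the striatum than in the dentate gyrus. Among the 15, 3 were listed at 0 in the dentate gyrus. Nts, the neurotensin precursor, was at 46.4 and 39.3 FPKM in the SVZ, 6.83 in the striatum and 1.86 in the olfactory bulb. Six3, a homeobox factor, was at 42.7 and 35.7 in the SVZ, 31.0 in the striatum and 0.21 in the olfactory bulb. Dynlrb2, a dynein light chain of cilia, was at 40.0 and 15.1 in the SVZ but at 0.0962 in the striatum, and was the only one of the 15 in the ependymal list.

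The 15 largest dentate gyrus-side differences were genes of glutamatergic neurons and of granule cells. Slc17a7, the vesicular glutamate transporter VGLUT1 (chr7:52419291-52431509, mm9), was at 752 FPKM in the dentate gyrus, 453 in the olfactory bulb, 21.4 in the striatum and 2.29 and 6.07 in the SVZ samples, a difference of -7.84 (-6.74 with SVZ sample 2). Neurod2, a bHLH factor of excitatory neurons, was at 235 FPKM in the dentate gyrus and between 0.139 and 3.16 in the other 4 libraries (-7.70). Nrn1, which encodes the membrane-anchored protein neuritin, was at 266 in the dentate gyrus, 42.0 in the olfactory bulb and 0.601 and 0.97 in the SVZ (-7.38). The group divides by the olfactory bulb: Slc17a7, Nrn1 and the glutamate receptor Grm2 were also well expressed there, whereas Neurod2, the secreted synaptic protein C1ql2 and the transcriptional regulator Prdm8 were at 3.16 FPKM or less outside the dentate gyrus.

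C1ql2 was at 217 FPKM in the dentate gyrus and at 0.225 to 1.15 elsewhere (-7.00), and Prdm8 was at 146 and at 0.165 to 0.35 elsewhere (-6.87). Slc30a3, the vesicular zinc transporter of mossy fibre terminals, was at 162 in the dentate gyrus, 11.3 in the olfactory bulb and 0.389 and 0.591 in the SVZ (-6.87). Dsp, the desmosomal protein desmoplakin, was at 75.8 FPKM in the dentate gyrus and 0.0228 to 0.579 elsewhere (-6.23). Grm2, Bhlhe22, Lct, Neurod6, Adra1d, C1ql3, Cabp7 and Rtn4rl2 completed the 15, with differences from -5.99 to -5.48. All 15 were highest in the dentate gyrus among the 5 libraries.

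**Figure D2:**
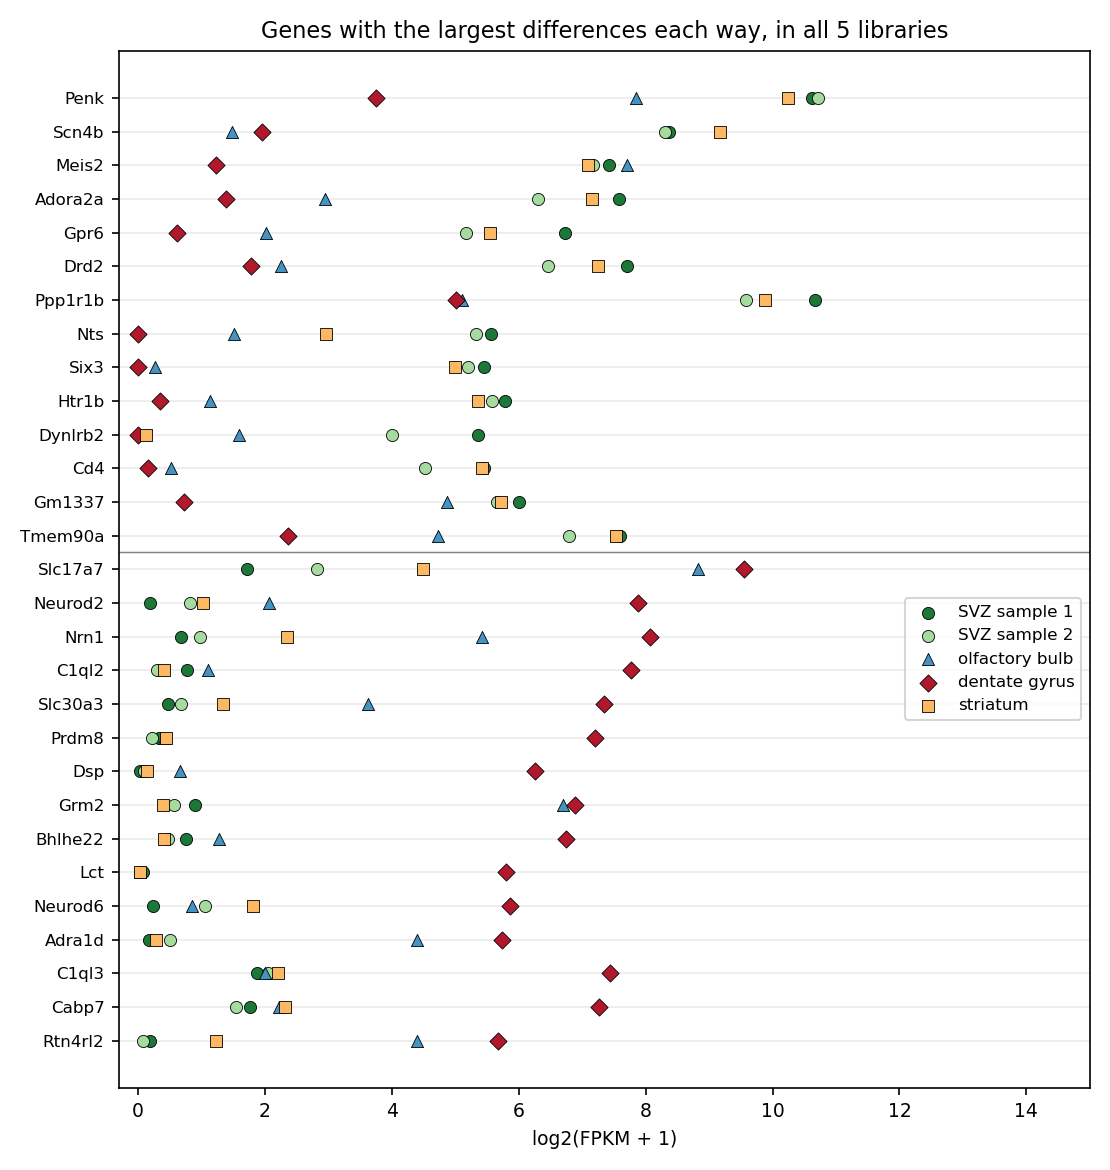
The x axis gives log2(FPKM + 1) and each row a gene, with the SVZ-side genes above the line and the 15 dentate gyrus-side genes below it. Symbols stand for the 5 libraries. Above the line both SVZ circles lie near the striatum square except for Nts and Dynlrb2, and below the line the dentate gyrus diamond lies to the right of all other symbols.

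Gene lists for cell types and pathways were read against the background of all genes compared, of which 12.7% were 1 unit or more higher in SVZ sample 1 and 5.7% were 1 unit or more lower. Of the 32 striatal projection neuron genes, 32 were 1 unit or more higher and 30 were 2 or more higher, with a median of 4.06 beside 0.16 for all genes (4.03 with SVZ sample 2). Their summed level was 8950 and 6630 FPKM in the SVZ, 7910 in the striatum, 652 in the olfactory bulb and 645 in the dentate gyrus. The list held genes of both projection pathways. Drd1a, the D1 dopamine receptor of the direct pathway, was at 108 and 119 FPKM in the SVZ, 158 in the striatum, 1.2 in the olfactory bulb and 2.13 in the dentate gyrus (5.12). Tac1, the substance P precursor, differed by 5.19, and Pdyn, the dynorphin precursor, by 2.54. Pdyn stood well above the striatum in both SVZ samples, at 133 and 116 FPKM against 31.2.

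Signalling components of these neurons were at high levels in the SVZ pieces. Ppp1r1b was at 1627 and 765 FPKM in the SVZ, 940 in the striatum, 33.3 in the olfactory bulb and 31.3 in the dentate gyrus. Adcy5, the adenylyl cyclase coupled to striatal receptors, was at 449 and 220 in the SVZ and 24.9 in the dentate gyrus (4.12), and the cyclic nucleotide phosphodiesterase Pde10a at 330.0 and 308 against 19.6 (4.0). Sh3rf2, Gpr149, Ido1 and Isl1 were listed at 0 in the dentate gyrus and at 7.12 to 27.0 FPKM in the SVZ apart from Gpr149 in sample 2, at 4.79. Lrrc10b was nearest to 1 unit, at 155 and 89.1 in the SVZ against 74.2 in the dentate gyrus (1.05, and 0.26 with SVZ sample 2).

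Dopamine, acetylcholine and cyclic AMP signalling shared 10 of its 33 genes with the striatal list. Of the other 23, 12 were 1 unit or more higher in SVZ sample 1 and 5 were lower, with a median of 1.36. Over all 33, the median of SVZ sample 2 minus the striatum was -0.40. The members on the dentate gyrus side were Adcy1, Drd5, Chrm3, Adcy8 and Chrm1. Adcy1, a calcium-stimulated adenylyl cyclase, was at 407 FPKM in the dentate gyrus against 19.8 and 16.7 in the SVZ, 22.9 in the olfactory bulb and 38.8 in the striatum (-4.29). The dopamine receptors therefore lay on opposite sides: Drd5, of the D1 class, was at 12.5 in the dentate gyrus and 1.24 and 0.99 in the SVZ (-2.59), against the SVZ-side Drd1a, Drd2 and Drd3 (1.36). The muscarinic receptors divided in the same way, with Chrm4 at 62.3 and 35.2 FPKM in the SVZ against 5.3 in the dentate gyrus (3.33), and Chrm3 at 1.27 and 1.32 against 11.1 (-2.41). Among the cyclases, Adcy5 lay on the SVZ side and Adcy1 and Adcy8 on the other.

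Genes of ependymal cells and motile cilia formed the other large SVZ-side group. Of 45 members compared, 38 were 1 unit or more higher, 27 were 2 or more higher and 1 was lower, with a median of 2.29 (1.75 with SVZ sample 2). In 38 of the 45 both SVZ samples were above the olfactory bulb, the dentate gyrus and the striatum. The share of all genes with such an order of libraries was not counted, here or for the lists below. Foxj1, the forkhead factor that directs motile ciliogenesis, was at 61 and 23.5 FPKM in the SVZ, 7.49 in the olfactory bulb, 3.24 in the dentate gyrus and 1.95 in the striatum (3.87). Ccdc153 was at 55.0 and 23.9 in the SVZ, 2.31 in the dentate gyrus, 0.249 in the olfactory bulb and 0.0927 in the striatum (4.08). Both genes were highest in the SVZ samples, and sample 1 was the higher of those.

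The ciliary genes covered most parts of the axoneme. Rsph1 and Rsph4a of the radial spokes were at 47.2 and 14.1 FPKM in SVZ sample 1, and the dentate gyrus listed 4.32 and 0. Tekt1, a tektin, was at 19.5 and 8.14 in the SVZ and listed at 0 in the dentate gyrus. The axonemal dynein genes Dnaic2 (2.89), Dnahc6 (2.69), Dnaic1 (2.44) and Dnahc11 (1.73) were higher in SVZ sample 1, and Dnahc9 was at 4.44 and 2.49 in the SVZ against 2.48 in the dentate gyrus. The lone member on the dentate gyrus side was Rfx3, a winged-helix factor of ciliogenesis that neurons also express, at 42.3 FPKM there against 14.4 and 13.8 in the SVZ, 5.61 in the olfactory bulb and 8.33 in the striatum (-1.49). Its relative Rfx2 went the other way, at 9.15 and 2.23 in the SVZ against 1.82 (1.85, and 0.20 with SVZ sample 2). Of the members, 8 were listed at 0 in the dentate gyrus, as were 75 of the 471 SVZ-side genes. That library listed 5731 of all 20340 genes at 0, and the share among the genes compared was not counted.

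RFX factors bind a sequence called the X-box, and promoters of the ciliary genes were searched for it because the members lay on the SVZ side together while Rfx2 and Rfx3 parted. The promoters are RefSeq windows of 250 bases before to 50 after each start, on GRCm38.p6, written 5′ to 3′ on the strand of the gene. The letters searched were GTNNCC, then 3 bases of any kind, then GNAAC, on both strands. A match was present in 8 of the 37 ciliary genes with a promoter entry (21.6%), in 366 of 10695 genes compared (3.42%), and in 2.24% of 21255 promoters of that length. It was present in 7.14% of the genes 2 units or more higher in SVZ sample 1 and 1.06% of those 2 or more lower. Some genes have several promoter entries and so more chances of a match. A match is a description of the letters and not a bound site. The following windows show the match in capitals.
Enkur: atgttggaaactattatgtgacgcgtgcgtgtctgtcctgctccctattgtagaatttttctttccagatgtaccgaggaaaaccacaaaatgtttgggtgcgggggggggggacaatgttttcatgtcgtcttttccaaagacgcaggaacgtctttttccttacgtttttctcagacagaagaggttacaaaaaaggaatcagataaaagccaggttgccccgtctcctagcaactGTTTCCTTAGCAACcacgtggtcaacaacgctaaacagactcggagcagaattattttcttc
Hydin: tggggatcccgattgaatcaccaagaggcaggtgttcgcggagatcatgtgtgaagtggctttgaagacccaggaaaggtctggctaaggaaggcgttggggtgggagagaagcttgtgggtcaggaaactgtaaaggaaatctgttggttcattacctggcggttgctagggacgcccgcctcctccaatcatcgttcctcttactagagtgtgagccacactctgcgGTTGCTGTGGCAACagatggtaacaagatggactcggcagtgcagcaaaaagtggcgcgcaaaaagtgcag
Spag16: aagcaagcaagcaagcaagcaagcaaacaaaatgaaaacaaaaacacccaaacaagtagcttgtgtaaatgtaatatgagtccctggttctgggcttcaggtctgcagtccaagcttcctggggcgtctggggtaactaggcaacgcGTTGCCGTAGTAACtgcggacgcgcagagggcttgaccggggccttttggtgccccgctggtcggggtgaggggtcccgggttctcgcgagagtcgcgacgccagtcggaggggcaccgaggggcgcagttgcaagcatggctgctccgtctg
1700027A23Rik: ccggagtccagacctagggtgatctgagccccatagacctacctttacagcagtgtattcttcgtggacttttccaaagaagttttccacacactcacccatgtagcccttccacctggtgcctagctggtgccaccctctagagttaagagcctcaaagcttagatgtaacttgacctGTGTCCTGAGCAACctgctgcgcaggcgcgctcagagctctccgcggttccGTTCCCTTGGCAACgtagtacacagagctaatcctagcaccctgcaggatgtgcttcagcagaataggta
Enkur lies on chr2:21205316-21205615 (minus strand), Hydin on chr8:110266727-110267026 (plus), Spag16 on chr1:69826720-69827019 (plus) and 1700027A23Rik on chr3:106001448-106001747 (minus). Counted from the start site, the matches begin at -12, -21, -103 and, for 1700027A23Rik, at -71 and -20. Enkur, a calcium channel-binding protein of cilia, was at 17.8 and 17.4 FPKM in the SVZ, 2.0 in the olfactory bulb, 2.05 in the dentate gyrus and 0.305 in the striatum (2.62). Hydin, a protein of the central apparatus of the axoneme, was at 3.19 and 1.9 in the SVZ and 0.366 in the dentate gyrus (1.62). Spag16 and 1700027A23Rik were listed at 0 in the dentate gyrus, at 3.66 and 2.56 and at 12.2 and 6.75 FPKM in the SVZ. The forkhead letters TAAACA were present in 10 of the 37 ciliary genes (27.0%) and 10.4% of all genes compared.

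Cell cycle genes were higher in SVZ sample 1 in nearly the whole list. Of 36 genes, 30 were 1 unit or more higher, 0 were 1 unit or more lower, and the median was 1.59 (0.98 with SVZ sample 2). With SVZ sample 2, 17 were 1 unit or more higher and 1 was lower, beside 9.93% and 15.7% of all genes. In 32 of the 36 both SVZ samples were above the olfactory bulb, the dentate gyrus and the striatum. Rrm2, the ribonucleotide reductase subunit made in S phase, was at 14.0 and 10.4 FPKM in the SVZ, 0.701 in the olfactory bulb, 0.322 in the dentate gyrus and 0.469 in the striatum (3.50). Top2a, the mitotic DNA topoisomerase, was at 19.3 and 13.8 in the SVZ, 1.56 in the dentate gyrus, 0.439 in the olfactory bulb and 0.195 in the striatum (2.98). Mki67, the proliferation antigen Ki-67, was at 11.3 and 7.38 in the SVZ and 1.38 in the dentate gyrus (2.37).

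The dentate gyrus was the next highest library for Top2a, Mki67, Ube2c and Aurkb, above the olfactory bulb and the striatum. Aurkb was at 1.2 FPKM there, against 0.202 and 0.0254. Ccnb1 and Bub1 were listed at 0 in the dentate gyrus and were at 2.88 and 2.32 in SVZ sample 1. The replication helicase genes divided. Mcm5 (2.24), Mcm2 (1.59, and 0.44 with SVZ sample 2), Mcm3 (1.45, and 0.51), Mcm7 (1.22) and Mcm4 (1.09) were higher in the SVZ. Mcm6 was at 21.5 FPKM in the dentate gyrus against 16.1 and 8.99 in the SVZ and 1.47 in the striatum. Ccnd2, a cyclin of neural progenitors and some neurons, was at 91.0 and 57.7 in the SVZ and 29.4 in the dentate gyrus (1.60), and Ccnd1 was nearly equal, at 7.68, 6.47 and 7.5.

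Of 25 genes of neuroblasts and immature neurons, 13 were 1 unit or more higher in SVZ sample 1 and 1 was lower, with a median of 1.05 (0.35 with SVZ sample 2). Dcx, the microtubule protein doublecortin, was at 16.3 and 18 FPKM in the SVZ, 37.5 in the olfactory bulb, 3.9 in the dentate gyrus and 2.54 in the striatum (1.82). Cd24a, a surface protein of neuroblasts that ependymal cells also carry, was at 62.1 and 60.4 in the SVZ against 5.18 in the dentate gyrus and 3.27 in the striatum (3.35). St8sia2, an enzyme that adds polysialic acid to NCAM, differed by 2.80. Tubb2b, Marcksl1, Stmn2 and Ncam1, also used as markers of young neurons, lay between -0.49 and -0.02 with SVZ sample 1 and between -1.13 (Marcksl1) and -0.48 (Ncam1) with SVZ sample 2. Igfbpl1 and Sox11 were at 6.65 and 11.1 FPKM in the dentate gyrus and at 0.503 and 2.56 in the striatum, so the dentate gyrus lay between the SVZ and the control tissue for these. The member on the dentate gyrus side was the semaphorin receptor Plxna4, at 52.1 FPKM against 11.3 and 9.6 in the SVZ (-2.11).

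Transcription factors separated the regions by neuronal lineage. Of 33 factors of the GABAergic lineage, 23 were 1 unit or more higher in SVZ sample 1 and 1 was lower, with a median of 2.25 (1.58 with SVZ sample 2). Of the 33, 3 were also in the striatal list, and without those the median was 2.02. That does not take out the striatal share, because factors at about the level of the striatum, such as Meis2 and Six3, stayed in. In SVZ sample 2, 8 of the 33 were 1 unit or more above the striatum, beside 3.86% of all genes compared. Dlx2, a homeobox factor of SVZ progenitors and neuroblasts, was at 33.3 and 9.36 FPKM in the SVZ, 50.1 in the olfactory bulb, 1.37 in the dentate gyrus and 0.478 in the striatum (3.85). Dlx1 was at 54.9 and 40.0 in the SVZ, 167 in the olfactory bulb, 6.58 in the dentate gyrus and 2.5 in the striatum (2.88), and reads of Dlx1 and Dlx6 and of their antisense neighbours cannot be told apart because strand is not given.

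A second kind of GABAergic factor was shared with the striatum. Foxp2 was at 24.0 and 22.7 FPKM in the SVZ, 17.1 in the striatum and 0.0208 in the dentate gyrus (4.61), and Pbx3 at 30.5 and 28.3, 31.5 and 1.29 (3.78). Dlx6 was at 20.2 and 20.9 in the SVZ, 24.8 in the striatum, 26.2 in the olfactory bulb and 0.583 in the dentate gyrus (3.74). Factors that were highest in the olfactory bulb differed among themselves. Sp8 was at 4.47 and 3.77 in the SVZ, 45.4 in the olfactory bulb and 0.171 in the dentate gyrus (2.22), and Sp9 (3.64), Meis1 (2.80) and Sall3 (1.76, and 0.57 with SVZ sample 2) were also higher in the SVZ. Pax6 was at 8.27 and 5.46 in the SVZ and 5.79 in the dentate gyrus, and Zic1 was at 4.79, 3.25 and 4.48. Zic2 was the member on the dentate gyrus side, at 6.88 against 1.67 and 1.86 (-1.56). The homeodomain core letters TAATTA, searched on both strands, were present in 3 of 22 listed genes with a promoter entry (13.6%), a small count. They were present in 3.24% of all genes compared and in 4.54% of 21255 promoters. The matching genes, Sp8, Foxp1 and Otx2, each have several promoter entries and so more chances of a match.

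Of 35 factors of the glutamatergic lineage, 18 were 1 unit or more lower in SVZ sample 1 and 3 were higher, with a median of -1.0 (-1.51 with SVZ sample 2). Neurod1, a bHLH factor of granule cell precursors, was at 32.3 FPKM in the dentate gyrus, 4.81 in the olfactory bulb, 0.0593 in SVZ sample 1, 0.0358 in the striatum and listed at 0 in SVZ sample 2. Prox1, the homeobox factor of granule cell identity, was at 89.5 in the dentate gyrus, 5.39 and 5.01 in the SVZ, 2.94 in the striatum and 0.925 in the olfactory bulb (-3.82). Emx1, a factor of the dorsal telencephalon, was at 24.3 in the dentate gyrus, 5.77 in the olfactory bulb and 0.67 and 0.564 in the SVZ (-3.92). All were highest in the dentate gyrus. Eomes, the factor of intermediate progenitors, was low in both niches, at 1.53 FPKM in the dentate gyrus and 0.336 and 0.293 in the SVZ, against 50.2 in the olfactory bulb, where mitral and tufted cells express it.

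Nuclear factor I genes were also on the dentate gyrus side, with Nfix at 109 FPKM there against 48.9 and 17.3 in the SVZ (-1.14) and Nfib at 42.6 against 17.6 and 16.5 (-1.23). Tbr1 and Neurod6, which are also in the list of CA and cortical pyramidal neurons below, were at 27.6 and 57.4 in the dentate gyrus and at 0.277 and 0.174 in SVZ sample 1. The 3 factors on the SVZ side were Etv5 (1.41, and 1.95 with SVZ sample 2), Cux1 (1.13, and 0.39) and Egr3 (1.07, and 0.37). The bHLH target letters CAGATG were present in 4 of 27 granule neuron genes (14.8%), beside 13.7% of all genes compared, 20.1% of the genes 2 units or more lower in SVZ sample 1 and 16.3% of those 2 or more higher.

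Of 30 dentate granule neuron genes, 22 were 1 unit or more lower in SVZ sample 1, 16 were 2 or more lower and 2 were higher, with a median of -2.65 (-3.21 with SVZ sample 2). In 24 the dentate gyrus was the highest of the 5 libraries, and the share of all genes with that order was not counted. Their summed level was 2710 FPKM in the dentate gyrus, 786 and 644 in the SVZ, 951 in the olfactory bulb and 693 in the striatum. Lct, Dsp, C1ql2, Tdo2 and Il16 were at 1.15 FPKM or less in all other libraries. Lct, the lactase gene, was at 54.5 FPKM in the dentate gyrus and at 0.0172 to 0.0505 in the other 4 libraries (-5.72). Tdo2, tryptophan dioxygenase, a marker of mature granule cells, was at 15.5 in the dentate gyrus and 0.0903 to 0.265 elsewhere (-3.71).

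The members on the SVZ side were the GABA receptor delta subunit Gabrd and the potassium channel Kcna4 (1.43). Gabrd was at 89.6 and 44.5 FPKM in the SVZ, 55.4 in the striatum, 34.3 in the olfactory bulb and 29.6 in the dentate gyrus (1.57). Calb1, the calcium buffer calbindin, was at 72.9 and 95.7 in the SVZ, 124 in the striatum and 111 in the dentate gyrus (-0.60). Igfbp5 was level at 84.8, 59.5 and 86.0.

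Markers of CA and cortical pyramidal neurons were mixed, with 11 of 24 lower and 4 higher and a median of -0.46 (-0.70). Besides Slc17a7, Neurod6 and Tbr1, the dentate gyrus side held Cck, the cholecystokinin precursor, at 348 FPKM against 6.83 and 8.19 in the SVZ (-5.48), and the pentraxin Nptx1, at 404 against 12.7 and 11.9 (-4.88). Iyd, of CA3 neurons, was at 7.86 in the dentate gyrus and at most 0.155 elsewhere (-2.99), and Fibcd1, of CA1 neurons, at 14.7 against 4.12 and 1.73 (-1.61). The part of neighbouring hippocampal fields in the dentate gyrus values was not tested. Wfs1 (2.92), Pou3f1 (3.26) and Man1a (2.26), listed for CA1, were higher in the SVZ, and Pou3f1 was as high in the striatum, at 24.0 FPKM against 18.9 and 19.1.

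Excitatory synapse scaffold and plasticity genes had 13 of 28 members lower in SVZ sample 1 and 5 higher, with a median of -0.82 (-1.79). Camk2a, the synaptic calcium kinase, was at 2304 FPKM in the dentate gyrus, 562 and 317 in the SVZ, 394 in the olfactory bulb and 414 in the striatum (-2.03). Nrgn, the calmodulin-binding protein neurogranin, was at 2008 against 441 and 288 (-2.18). Among scaffolds, Shank1 was at 139 against 23 and 18.2 (-2.54), while Shank3 was at 85.7 against 92.0 and 45.4. Homer2 (-2.50) and Homer3 (-2.37) were on the dentate gyrus side and Homer1 on the SVZ side (1.13, and 2.01 with SVZ sample 2). Camk4 was the largest SVZ-side member, at 55.6 and 86.3 in the SVZ, 106 in the striatum and 9.27 in the dentate gyrus (2.46).

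**Figure D3:**
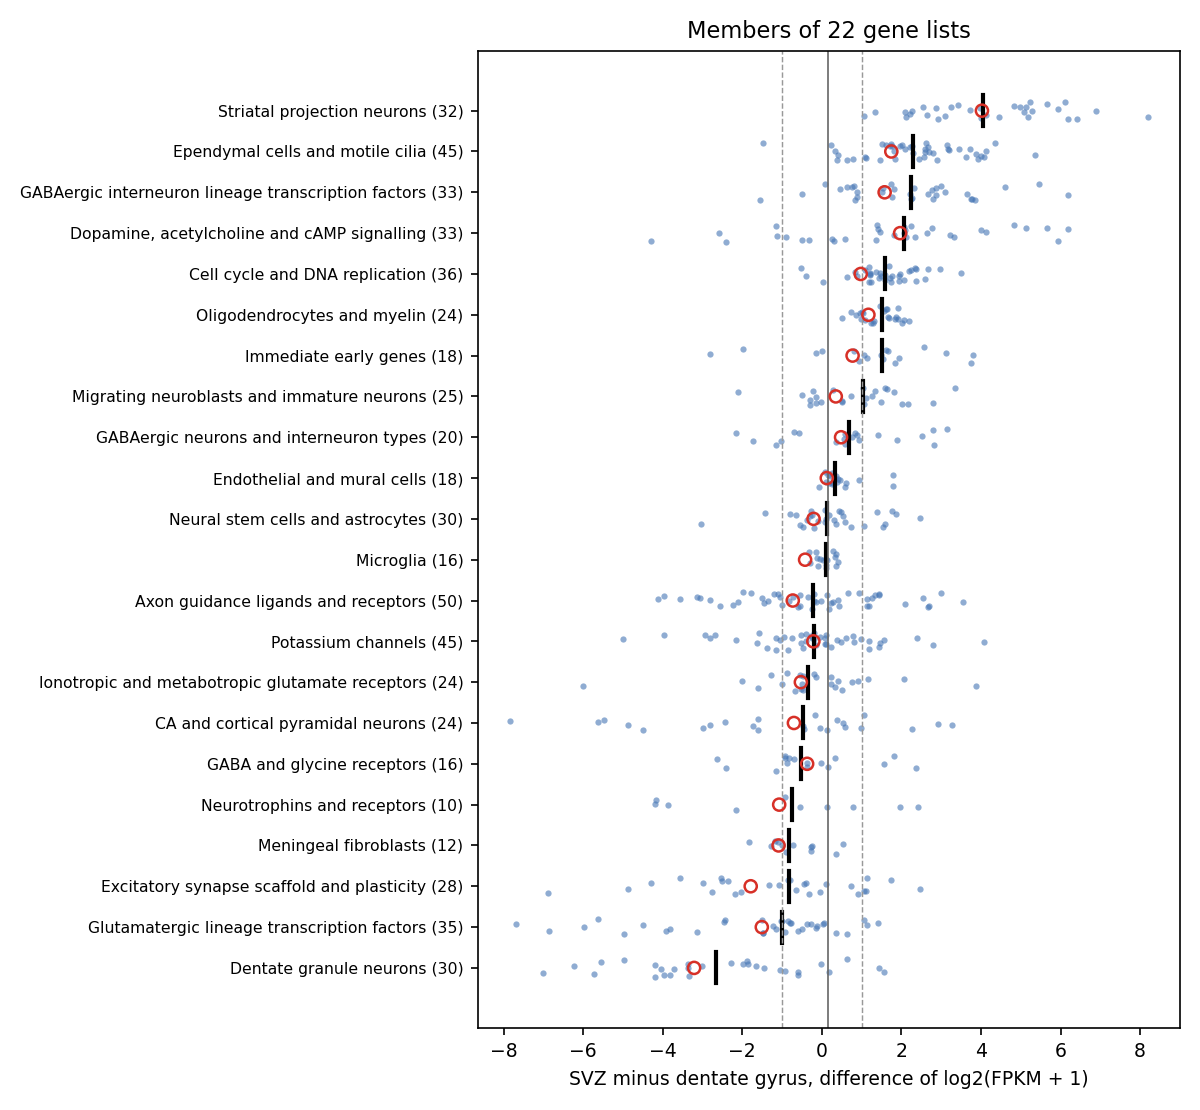
Each blue point is a gene of the list named on the left (number compared in parentheses), placed by its difference of log2(FPKM + 1) between SVZ sample 1 and the dentate gyrus. Black bars are list medians, open red circles the medians with SVZ sample 2, the grey line the median of all genes (0.16) and dashed lines 1 unit either way. Lists run from striatal neurons, at a median of 4.06, to dentate granule neurons, at -2.65.

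Neurotransmitter receptors differed by subunit. Of 24 glutamate receptor genes, 3 were higher, 5 lower and 16 within 1 unit, with a median of -0.34 (-0.53). Their summed level was 1010 and 786 FPKM in the SVZ and 1460 in the dentate gyrus. The metabotropic receptors held the extremes: Grm4 was at 33.8 and 16.3 FPKM in the SVZ, 20.4 in the striatum, 79.3 in the olfactory bulb and 1.38 in the dentate gyrus (3.87), and Grm2 was at 118 in the dentate gyrus, 103 in the olfactory bulb and 0.866 and 0.48 in the SVZ (-5.99). The NMDA receptor subunit Grin2a was at 34.4 in the dentate gyrus against 7.75 and 10.4 (-2.01), whereas the obligatory subunit Grin1 was at 263 against 228 and 84.8. Of 16 GABA and glycine receptor genes, 3 were higher and 3 lower, with a median of -0.53 (-0.37) and a summed level of 711 and 675 FPKM in the SVZ against 938 in the dentate gyrus. Gabra5, an extrasynaptic subunit of hippocampal neurons, was at 72.8 in the dentate gyrus against 10.9 and 15.6 (-2.64), Gabbr2 of the GABA-B receptor at 119 against 21.4 and 13.4 (-2.42), and Gabrg3 at 1.5 against 11.8 and 12.1 (2.36).

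GABAergic neuron genes were likewise divided, with 6 of 20 higher, 4 lower and a median of 0.67 (0.48). Gad2, a GABA-synthesising enzyme, was at 132 and 171 FPKM in the SVZ and 22.3 in the dentate gyrus (2.51), and the vesicular transporter Slc32a1 at 194 and 112 against 26.9 (2.80). Gad1 was closer, at 186 and 180 against 105 (0.82). Chat and Slc18a3, of cholinergic neurons, were listed at 0 in the dentate gyrus and at 7.89 and 6.05 in SVZ sample 1. Pvalb, of fast-spiking interneurons, was at 3.09 in SVZ sample 1 but 12.9 in sample 2, against 12.6 in the dentate gyrus, so that its difference was -1.73 with sample 1 and 0.04 with sample 2. Among neuropeptide precursors 7 of 19 were higher and 4 lower, with a median of 0.58 that became -0.02 with SVZ sample 2. Penk, Nts, Tac1 and Cck held the extremes, and Cort, made by interneurons, was at 8.26 in the dentate gyrus against 0.183 and 0.78 (-2.97).

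The neurotrophin ligands Bdnf and Ntf3 lay on the dentate gyrus side. Bdnf was at 17.6 FPKM in the dentate gyrus, 3.09 in the olfactory bulb, 0.841 in the striatum and 0.0222 and 0.107 in the SVZ (-4.18). Ntf3, neurotrophin 3, was also at 17.6 in the dentate gyrus, at 0.125 in the olfactory bulb and 0.0416 in SVZ sample 1, and listed at 0 in SVZ sample 2 and the striatum. The main receptor of BDNF, Ntrk2, was on the other side by a smaller amount, at 218 and 174 in the SVZ and 126 in the dentate gyrus (0.79), and the NT-3 receptor Ntrk3 was at 65.9 in the dentate gyrus against 34.1 and 23.8 (-0.93). Gdnf was listed at 0 in the dentate gyrus and at 2.93 in SVZ sample 1, and Gfra2, a receptor of the GDNF family, was at 37.0 in the dentate gyrus against 1.61 and 1.87 (-3.86). In all, 2 of the 10 genes were 1 unit or more higher and 4 lower.

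Axon guidance genes differed widely in both directions. Of 50, 13 were 1 unit or more higher in SVZ sample 1, 18 were lower and 19 lay within 1 unit, with a median of -0.22 (-0.73). The secreted semaphorin Sema3f was at 11.6 and 4.38 FPKM in the SVZ and 0.0786 in the dentate gyrus (3.55), and Sema3a at 7.36 and 8.18 against 0.43 (2.55). Their receptors had the opposite pattern: Nrp2, the neuropilin that binds Sema3f, was at 31.0 in the dentate gyrus against 1.69 and 1.42 (-3.57), and Nrp1, which binds Sema3a, at 41.3 against 4.06 and 7.34 (-3.06). Slit ligands and Robo receptors were not alike: Slit1 was at 133 in the dentate gyrus, 14.3 and 4.45 in the SVZ and 2.76 in the striatum (-3.13), and Robo3 at 20.6 against 0.258 and 0.121 (-4.11). Slit2 (0.18, and -0.47 with SVZ sample 2), Robo1 (0.29, and 0.10) and Robo2 (-0.14, and 0.13) were closer. Ephrin-B2, from Efnb2, was at 39.6 and 40.0 in the SVZ, 28.5 in the striatum and 4.05 in the dentate gyrus (3.01), and Epha7 was at 122 in the dentate gyrus against 25.0 and 25.4 (-2.24).

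Potassium channel genes were split in the same manner, with 8 of 45 higher, 12 lower and a median of -0.21 with either SVZ sample. Kcnj6, the inward rectifier GIRK2, was at 48.4 FPKM in the dentate gyrus, 16.6 in the olfactory bulb, 0.992 in the striatum and 0.557 and 0.946 in the SVZ (-4.99), and its partner Kcnj3 (GIRK1) was at 49.6 against 5.62 and 4.8 (-2.93). Kcnc4 (-3.97) was also on the dentate gyrus side, as were the delayed rectifier genes Kcnc2 (-2.14) and Kcnc1 (-1.14). Kcna5, another delayed rectifier, was the largest SVZ-side channel, at 36.8 and 26.9 in the SVZ, 11.8 in the striatum, 9.4 in the olfactory bulb and 1.24 in the dentate gyrus (4.07). Kcnj10, the inward rectifier of astrocytes, was level at 42.6, 50.05 and 39.8.

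**Figure D4:**
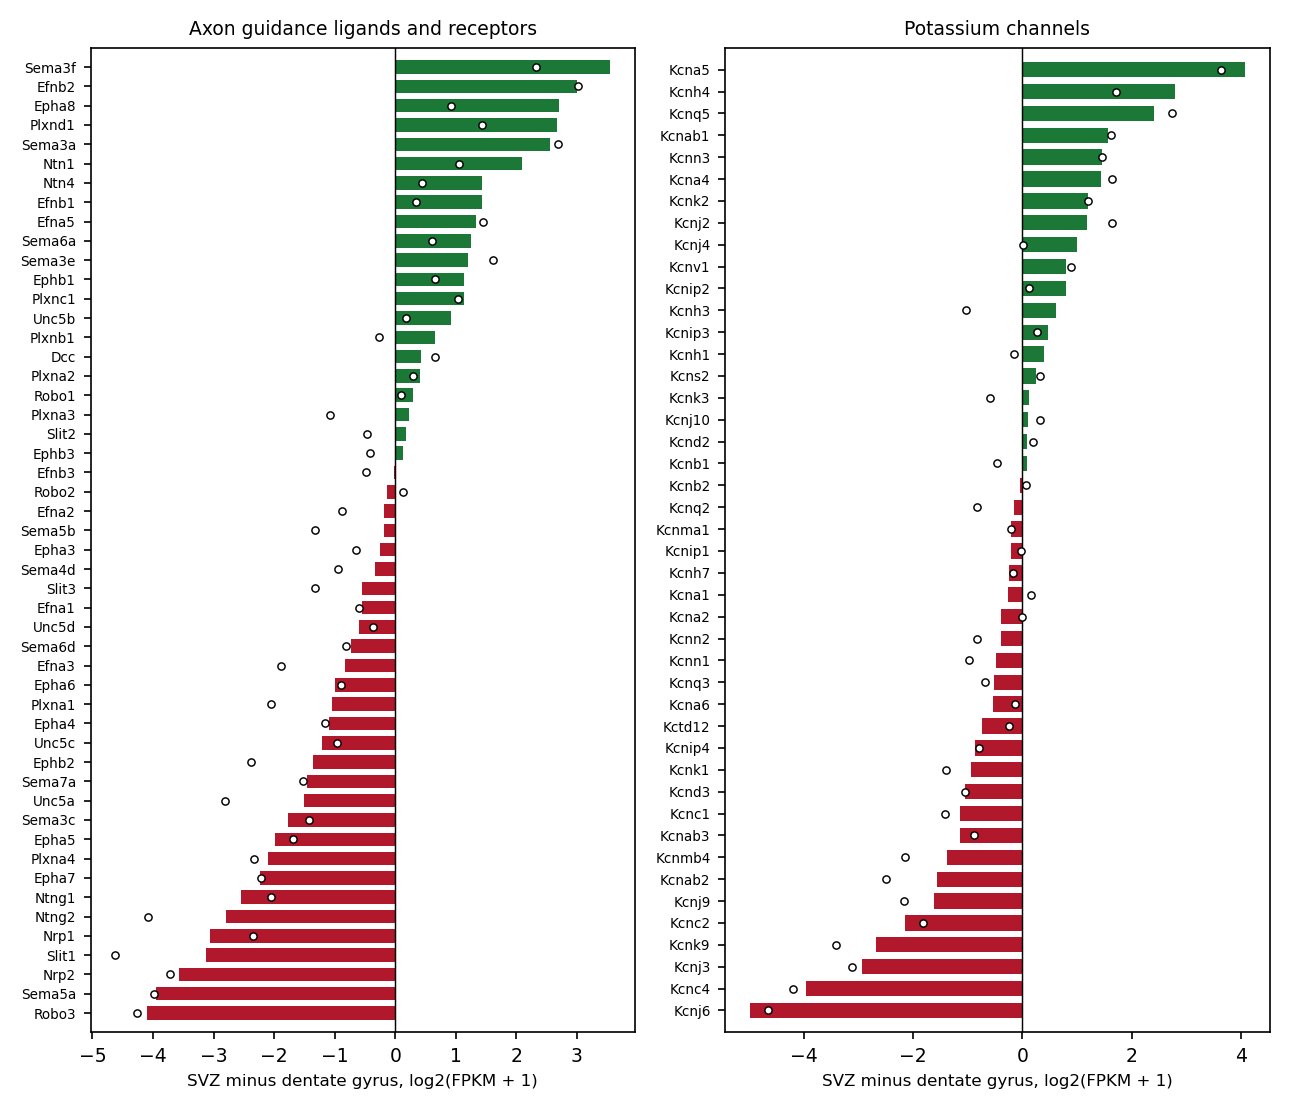
Bars give the difference of log2(FPKM + 1) between SVZ sample 1 and the dentate gyrus for axon guidance genes (left) and potassium channel genes (right), in order, with white circles for SVZ sample 2. Both families reach about equally far to either side, from Sema3f at 3.55 to Robo3 at -4.11 and from Kcna5 at 4.07 to Kcnj6 at -4.99.

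Among synaptic organisers and adhesion genes, 11 of 51 were higher, 7 lower and 33 within 1 unit, with a median of -0.12. With SVZ sample 2, 12 were higher and 12 lower, with a median of 0.05. Apart from C1ql2 and C1ql3, the protocadherins Pcdh20 and Pcdh8 were the largest dentate gyrus-side members, at 56.6 and 85.1 FPKM against 2.94 and 7.69 in SVZ sample 1 (-3.87 and -3.31). Cntn4 led the other side, at 13.4 and 14.6 against 1.66 (2.44). Of 38 extracellular matrix genes, 8 were higher and 4 lower, with a median of 0.09. The direction turned with SVZ sample 2, where 6 were higher and 12 lower, with a median of -0.65. Col6a1, a collagen VI chain, was at 135 and 46.8 in the SVZ, 87.7 in the olfactory bulb, 13 in the striatum and 6.09 in the dentate gyrus (4.27), and Col6a2 differed by 2.37. Hapln4, a link protein of perineuronal nets, was at 13.3 in the dentate gyrus against 1.93 and 3.09 (-2.28).

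Astrocyte and stem cell genes were close in the 2 niches. Of 30, 7 were 1 unit or more higher in SVZ sample 1 and 2 were lower, with a median of 0.14 that became -0.21 with SVZ sample 2. The astrocytic transporters Slc1a3 (0.11) and Slc1a2 (-0.31, and 0.29 with SVZ sample 2) and glutamine synthetase Glul (-0.19) were close, and the glycolytic enzyme Aldoc differed by 0.08 with SVZ sample 1 and -1.04 with sample 2. Thbs4, a thrombospondin of SVZ astrocytes, was at 70.5 and 27.7 FPKM in the SVZ, 12 in the dentate gyrus, 1.27 in the olfactory bulb and 1.24 in the striatum (2.46). Sox2, the stem cell factor, was at 58.9 and 59.8 in the SVZ, 39.2 in the olfactory bulb, 18.8 in the dentate gyrus and 16.7 in the striatum (1.60), and Nes, which encodes nestin, at 9.85 and 6.63 against 2.72 (1.54).

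Hopx, a homeodomain protein that marks stem cells of the dentate gyrus, was at 75.3 FPKM there, 31.0 in the olfactory bulb, 8.31 and 6.48 in the SVZ and 7.3 in the striatum (-3.03). Gfap, the intermediate filament of astrocytes and stem cells, was at 252 in the dentate gyrus, 278 in the olfactory bulb, 92.4 and 43.2 in the SVZ and 20.6 in the striatum (-1.44). Vim, the other intermediate filament gene, went the other way, at 108 and 48 in the SVZ against 29.1 in the dentate gyrus and 7.76 in the striatum (1.86). Nr2e1, the nuclear receptor Tlx, was close, at 15.9, 10.8 and 11.2.

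Niche signalling pathways differed by member more than as a whole, and the signs of the Wnt, Hedgehog, Notch and FGF medians turned with SVZ sample 2. Of 35 Wnt genes, 8 were higher and 5 lower (median 0.31, and -0.16). The ligand Wnt2 was at 8.53 and 5.99 FPKM in the SVZ against 0.402 in the dentate gyrus (2.77) and the receptor Fzd5 at 7.07 and 5.03 against 0.273 (2.66), while the ligand Wnt7b was at 28.2 in the dentate gyrus against 8.07 and 4.3 (-1.69). The secreted antagonists were divided: Sfrp1 was at 16.1 and 12 in the SVZ against 1.82 (2.60), and Frzb at 15.3 in the dentate gyrus against 0.567 and 0.409 (-3.38). The R-spondins, which amplify Wnt signals, divided as well, with Rspo1 on the SVZ side (1.87) and Rspo3 (-2.11) and Rspo2 (-2.21) on the other. The target gene Axin2 was close, at 11.7, 8.64 and 15.3.

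Of 30 BMP and TGF-beta genes, 6 were higher and 2 lower (median 0.48, and 0.19). The ligand Bmp6 was at 12.8 and 6.98 FPKM in the SVZ and 2.73 in the dentate gyrus (1.88), and Bmp2 was at 2.48 and 2.1 and listed at 0 in the dentate gyrus. Id4, a BMP-responsive inhibitor of bHLH factors, was at 117 and 116 against 37.0 (1.63). Chordin, from Chrd, an extracellular BMP antagonist, was at 21.8 in the dentate gyrus against 2.42 and 0.826 (-2.74), and noggin, from Nog, was low throughout, at 3.39 against 1.73 and 0.989. Of 22 Notch genes, 5 were higher and 0 lower (median 0.45, and -0.10). Dlk1, a noncanonical ligand that the SVZ secretes, was at 9.42 and 4.68 in the SVZ and 0.106 in the dentate gyrus (3.24), and the effector Hes5 at 23.1 and 9.81 against 6.04 (1.77). Rbpj, the nuclear mediator, was level at 7.32, 8.19 and 7.27.

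Among 11 Hedgehog genes 10 lay within 1 unit, and Ptch1 was at 23.9 and 15 FPKM in the SVZ and 16.6 in the dentate gyrus. Of 33 genes of FGF, EGF and VEGF signalling 25 lay within 1 unit. Nrg1 was at 5.33 and 5.56 in the SVZ against 0.448 (2.13), Egfr at 8.85 and 5.5 against 3.73 (1.06), and the intracellular Fgf13 at 198 in the dentate gyrus against 46.1 and 46.4 (-2.08).

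Oligodendrocyte and myelin genes were on the SVZ side, with 19 of 24 higher by 1 unit or more, 0 lower, and a median of 1.52 (1.17). Both SVZ samples were above the dentate gyrus in 23 of the 24, and the share of all genes with that order was not counted. Mbp, myelin basic protein, was at 1702 and 1301 FPKM in the SVZ, 1468 in the striatum, 723 in the olfactory bulb and 449 in the dentate gyrus (1.92). Precursor genes were level, with 1 of 10 higher: Pdgfra was at 11.4 and 11.6 against 10.6 (0.10).

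Immediate early genes had 12 of 18 higher and 2 lower, with a median of 1.51 (0.77). Egr1, an activity-induced zinc finger factor, was at 244 and 265 FPKM in the SVZ, 231 in the striatum, 158 in the olfactory bulb and 27.1 in the dentate gyrus (3.13), and Nr4a1, an orphan nuclear receptor, at 167 and 97.5 against 11.4 (3.75). Jun was at 116 in the dentate gyrus against 28.4 and 14.1 in the SVZ (-1.99), and Nr4a2 at 10.9 against 0.7 and 0.836 (-2.80). The labels give no time from death to freezing for any region.

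Of 16 microglial genes 0 were 1 unit or more apart, with differences from -0.33 to 0.41, and of 18 endothelial and mural genes 2 were higher, the smooth muscle genes Tagln (1.80) and Acta2 (1.78). Meningeal fibroblast genes had 5 of 12 lower and 0 higher, with a median of -0.81 (-1.09 with SVZ sample 2) and a summed level of 187 and 195 FPKM in the SVZ and 342 in the dentate gyrus, against 2540 in the olfactory bulb. Of the 16 choroid plexus genes 8 were compared, of which 4 were 1 unit or more higher in SVZ sample 1 and 2 were lower, with a median of 0.79 (0.38 with SVZ sample 2). Clic6, a chloride channel protein, was at 10.2 and 9.74 FPKM in the SVZ, 5.08 in the striatum and 0.528 in the dentate gyrus (2.88), and the folate receptor Folr1 at 5.19 and 2.26 against 0.374 in the dentate gyrus (2.17). Calml4 was at 8.51 and 6.71 in the SVZ and listed at 0 in the dentate gyrus, and Ttr, the transthyretin gene of that tissue, was at 15.1 and 18.2 FPKM in the SVZ and 17.6 in the dentate gyrus. Of 20 ribosomal protein genes and 14 reference genes, 0 were 1 unit or more apart with SVZ sample 1. With SVZ sample 2, 12 of the ribosomal genes were 1 unit or more higher than the dentate gyrus, beside 9.93% of all genes, with a median of 1.33.

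SVZ sample 2 and the striatum form a comparison that shares no library with the one above, and it was used to sort the SVZ-side genes. Of the 471 genes at least 2 units higher in SVZ sample 1 than in the dentate gyrus, 207 (43.9%) were 1 unit or more higher in SVZ sample 2 than in the striatum, against 3.86% of all 13488 genes. Another 253 (53.7%) lay within 1 unit of the striatum, and 11 were 1 unit or more lower, against 0.823% of all genes. The 471 were picked as high in SVZ sample 1, a replicate of the same tissue as SVZ sample 2. The background of all genes was not picked so, and an excess above the striatum is therefore partly set by the choice. By list, striatal neuron genes had a median SVZ sample 2 minus striatum of -0.40, oligodendrocyte genes -0.21, GABAergic lineage factors 0.38, cell cycle genes 1.52 and ependymal genes 1.80. Of the 45 ependymal genes 39 were 1 unit or more above the striatum, and of the 36 cell cycle genes 30 were. The striatal list, whose summed level was as high in the SVZ as in the striatum, moved with the SVZ-side difference, and its part in the differences of other genes was not tested.

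Of the 238 dentate gyrus-side genes, 213 (89.5%) lay within 1 unit in that comparison. Another 5 (2.1%) were 1 unit or more higher in SVZ sample 2 than in the striatum, against 3.86% of all genes compared. The other 20 were 1 unit or more lower, against 0.823% of all genes compared. The 238 were picked as low in SVZ sample 1, so these shares too are partly set by the choice. In the olfactory bulb, 187 of the 471 SVZ-side genes (39.7%) and 156 of the 238 dentate gyrus-side genes (65.5%) were at 5 FPKM or more, against 75.9% of all genes compared. Of the 471 and the 238, 152 and 31 were under 1 FPKM in the olfactory bulb. The share of all genes compared was not counted at that level.

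**Figure D5:**
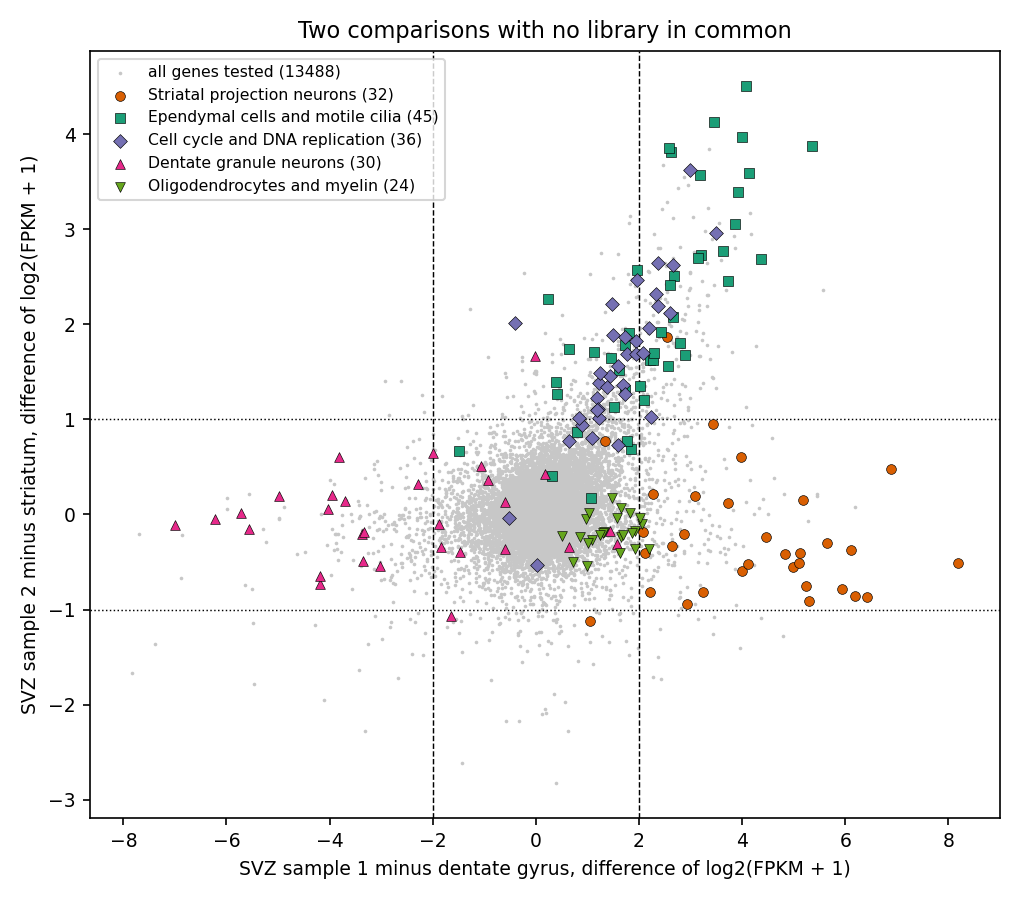
The x axis gives SVZ sample 1 minus the dentate gyrus and the y axis SVZ sample 2 minus the striatum, both as differences of log2(FPKM + 1), with no library in common. Vertical dashed lines mark 2 units and horizontal dotted lines 1 unit. Ependymal and cell cycle genes lie at the upper right, striatal and oligodendrocyte genes to the right near or below 0, and granule neuron genes to the left near 0.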

How the data were processed

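The deposited table holds FPKM values that the authors computed for transcripts in 5 libraries, per the file headers. The submitters' processing notes list CASAVA, TopHat 1.2.0, Cufflinks 1.0.0 and the mm9 build, without roles. FPKM holds no read counts, so depth and counting error are unknown, and the sources used here do not give strandedness.

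Values were summed by symbol (Python 3.11.15, pandas 2.3.3), and SVZ sample 1 and the dentate gyrus were compared on log2(FPKM + 1) keeping genes that reached 1 FPKM in at least 1 of them. Genes were counted by size, 2 log2 units for all genes and 1 for lists, with no test because the dentate gyrus has 1 library. The counting was tested on simulated data. The 35 lists and the members were chosen with earlier results of these data known, and 8 list symbols were not found. Named genes were the 15 largest differences each way at 5 FPKM or more, and for each list its first 3 members and the 3 largest each way. A few genes are not reported here. Other named members were chosen after their values were seen. Alternatives were other pseudocounts, filters, scalings, transcript choices and SVZ sample 2. Coordinates are mm9, counted from 1, and promoters are RefSeq on GRCm38.p6.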

Additional observations from a re-analysis of the deposited data

How the results depend on the processing

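The 471 SVZ-side genes became 948 with a pseudocount of 0.1 and 142 with a pseudocount of 5, and the 238 dentate gyrus-side genes became 386 and 122. With SVZ sample 2 in place of sample 1, 397 were higher and 439 lower, and the median of all genes was -0.14 in place of 0.16. The higher genes made up 66.4% of those counted with SVZ sample 1, 47.5% with SVZ sample 2, 57.7% with the mean of both SVZ samples (399 and 292), 61.3% with median ratio scaling (418 and 264) and 63.6% with upper quartile scaling (443 and 253). Median ratio scaling moved the median of all genes to 0.03. Of 219 named genes, 26 had the other sign in at least 1 of 9 alternatives, 24 of them with SVZ sample 2, and 23 of the 26 differed by under 1 unit with SVZ sample 1. The other 3 differed by 1 unit or more: Pvalb was at 0.0394 and Dll3 at -0.0742 with SVZ sample 2, and Dcn was at 1.44 with its highest transcript in place of the sum. The cause was not tested. Lists whose median changed sign in some alternative were astrocytes and stem cells, neuropeptides, Wnt, Hedgehog, Notch, FGF, synaptic organisers, matrix, oligodendrocyte precursors, microglia, blood and reference genes. No paired analysis was possible because the dentate gyrus had 1 library. Differences of genes near 1 FPKM, and of the 75 SVZ-side genes listed at 0 in the dentate gyrus, are the least certain.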

Other observations

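The lists covered 136 of the 471 SVZ-side genes and 75 of the 238 dentate gyrus-side genes, and the others held further genes with large differences. On the SVZ side, Crym, which encodes a thyroid hormone-binding crystallin, was at 517 and 209.7 FPKM in the SVZ, 82.5 in the striatum, 7.08 in the olfactory bulb and 55.8 in the dentate gyrus (3.19). Cdca7, a cell division cycle gene, was at 30.4 and 20.6 in the SVZ, 10.9 in the olfactory bulb, 1.79 in the striatum and 0.735 in the dentate gyrus (4.18). Rarres2, the chemerin gene, was at 91.9 and 30.6 in the SVZ against 3.14 to 5.48 in the other 3 libraries (3.84). These genes were above the striatum in both SVZ samples.

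On the dentate gyrus side, the receptors of myelin-derived inhibitors Rtn4r and Rtn4rl2 were at 96.2 and 49.9 FPKM in the dentate gyrus against 1.59 and 0.137 in SVZ sample 1 (-5.23 and -5.48). Smoc2, a matricellular protein gene, was at 41.0 in the dentate gyrus, 3.03 in the olfactory bulb and 0.0736 to 0.223 in the other 3 libraries (-5.29). Ncald, a neuronal calcium sensor, was at 299 against 19.5 and 23.5 in the SVZ (-3.87), and Olfm1 at 1283 against 88.6 and 63.2 (-3.84). Cyp26b1, which breaks down retinoic acid, was at 12.3 in the dentate gyrus and 0.33 to 0.813 elsewhere (-3.26). Faah, the enzyme that breaks down anandamide, was at 73.0 against 7.29 and 3.38 (-3.16). These genes were chosen after their values were seen.

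Among 1135 genes with at least 2 coding transcripts at 5 FPKM or more, 42 had a transcript 2 units or more higher in SVZ sample 1 and another 2 or more lower. For Bcar1, an adaptor of integrin signalling, a transcript was at 28.4 FPKM in SVZ sample 1 and 0.636 in the dentate gyrus, and another was listed at 0 and at 63.2. For Gpm6b, a neural membrane proteolipid, a transcript was at 39.5 and 1.65 and another at 0.302 and 72.4. In SVZ sample 2 the same 2 Gpm6b transcripts were at 1.29 and 0.0174. The same 2 Bcar1 transcripts were at 3.78 and 7.3 there, so the one listed at 0 in SVZ sample 1 was the higher in SVZ sample 2.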
